A study of Mus musculus with 4 samples.

Results

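The genes described here encode fatty acid desaturases, which put double bonds into fatty acyl chains, and elongases, which lengthen those chains. They were the 10 genes Scd1, Scd2, Scd3, Fads1, Fads2, Fads3, Elovl1, Elovl5, Elovl6 and Elovl7, taken by symbol from a table of 25124 genes. All 10 were present in it. RNA had been sequenced from airway epithelial cells sorted by FACS (fluorescence-activated cell sorting) from lungs of wild-type C57BL/6 mice. Both groups had been sensitised with HDM (house dust mite, an aeroallergen that provokes allergic airway inflammation). One group had also received an inhibitor of SCD1, the enzyme encoded by Scd1, and the other its vehicle DMSO, with 2 libraries in each. The labels name neither the inhibitor compound nor its dose, nor the sex or age of the mice, nor the markers of the sort, and they do not say that the libraries came from separate animals. P values therefore measure the spread between these samples, which may be technical.

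A delta-9 desaturase such as SCD1 turns the saturated palmitate and stearate into the monounsaturated palmitoleate and oleate, which go into membrane phospholipids and stored triglyceride. The delta-6 desaturase FADS2 and the delta-5 desaturase FADS1 act in turn on the essential dietary fatty acids and yield the long polyunsaturated chains from which eicosanoids are made. Elongases of the ELOVL family carry out the first and slowest step of a cycle in the endoplasmic reticulum that lengthens a chain, and their members differ in the chains they accept. In the lung, alveolar type 2 cells are rich in these enzymes, since they make the lipid of surfactant. Many of the genes are targets of the SREBP transcription factors. An enzyme inhibitor acts on the protein, so transcript levels do not check the treatment labels.

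Libraries held 24591122 to 27013663 reads assigned to genes. Each value is a gene's read count scaled by a size factor for its library, called normalised reads below. The libraries had high levels of epithelial markers in common: Epcam, Cdh1, Krt8, Krt18, Krt19 and Cldn7 summed to 102153 and 103994 normalised reads with DMSO and to 98042 and 102640.0 with the inhibitor. Markers of alveolar type 2 cells were abundant as well, although the cells are labelled as airway epithelium. Leukocyte and lymphocyte genes (Ptprc, Cd3e, Cd3d, Cd79a, Ms4a1 and Nkg7) summed to 48.7 to 291 normalised reads, most of them from Ptprc (48.7 to 241). The 5 adipocyte markers summed to 0 and 88.2 with DMSO and to 63.1 and 19.9 with the inhibitor, with Adipoq and Lep at 0 in every library and Fabp4 the highest, at up to 72.3. Endothelial markers summed to 4140.5 and 12079 reads with DMSO and to 4229 and 5779 with the inhibitor, so DMSO replicate 2 stood above the other libraries in them.

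Of the 10 genes, 7 had both inhibitor libraries below both DMSO libraries and 1, Elovl7, had both above; of all 13810 genes tested, 22.2% lay below in this way, 22.7% above and 44.9% one or the other. Scd3 and Elovl6 overlapped between groups. Inhibitor replicate 2 was the lowest of the 4 libraries for the same 7 genes, where it was the lowest for 23.6% of all genes. In genes that lie below in this way an inhibitor library must be the lowest, and the share among such genes was not counted. The log2 fold change (inhibitor minus DMSO, on the log2 of the value plus 25.8, which is worth 1 read in 1000000, or 1 CPM) was negative for 8 of the 10 genes, against 49.3% of all genes tested. Its median was -0.39, against 0.0056 over all genes tested. In limma's test across all genes, however, none of the 10 passed at an adjusted p under 0.05, where 1.79% of all genes passed. Without adjustment, Scd1, Scd2, Fads3 and Elovl1 had p under 0.05, all 4 negative, where 14.1% of all genes did and 5.92% did with a negative value. Other tools were run on the recovered reads. With edgeR (0.304% of all genes called) and limma voom (2.08%) none of the 10 passed. DESeq2 gave 8 of them an adjusted p and called 2, Elovl1 (0.0181) and Scd2 (0.0325), both with lower values, where it called 6.10% of all genes and 1.89% as lower; its adjusted p for Scd1 was 0.341.

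**Figure D1:**
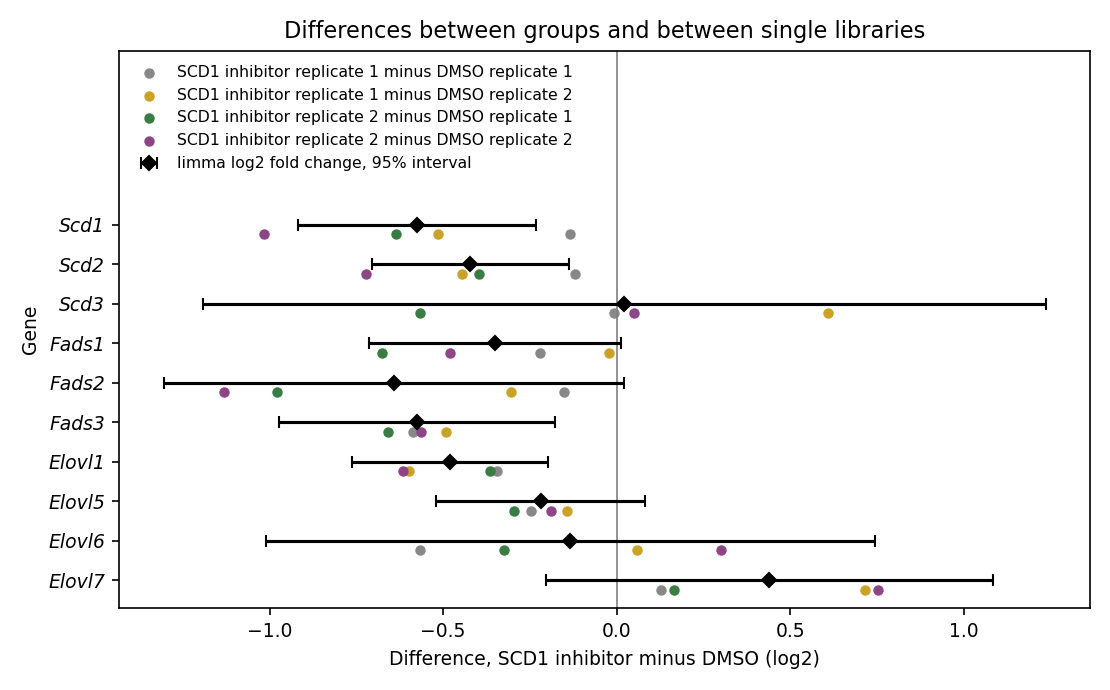
Differences between SCD1 inhibitor and DMSO libraries for each gene on the log2 scale. Black diamonds are limma's log2 fold changes with 95% intervals and coloured points are the 4 differences between single libraries. All 4 points lie left of 0 for 7 genes and right of 0 for Elovl7, and for Scd1 they run from -1.02 to -0.14.

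The SCD genes are 4 neighbours on mouse chromosome 19 (mm10) whose coding sequences are close copies, so it matters whether reads can be told apart. Scd1 and Scd2 were identical at 90.4% of 1068 aligned coding bases, Scd1 and Scd3 at 91.5%, and Scd1 and Scd4 at 85.2% of 1053. The most alike stretch of 60 coding bases that lies within 1 exon in all 4 genes is in exon 4, at 44401827 to 44401886 on the minus strand for Scd1, and is shown because Scd1, Scd2 and Scd4 have the same letters throughout it. Sequences are from GENCODE M21 transcripts (GRCm38, which is mm10), and capitals mark positions at which the 4 genes are not all alike.
Scd1: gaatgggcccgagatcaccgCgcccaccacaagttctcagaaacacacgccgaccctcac
Scd2: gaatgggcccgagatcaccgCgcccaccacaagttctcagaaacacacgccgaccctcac
Scd3: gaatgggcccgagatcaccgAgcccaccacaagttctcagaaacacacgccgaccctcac
Scd4: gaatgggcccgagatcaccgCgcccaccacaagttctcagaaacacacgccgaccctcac
The least alike stretch of the same kind, in exon 3 (44403236 to 44403295 for Scd1), is shown for contrast.
Scd1: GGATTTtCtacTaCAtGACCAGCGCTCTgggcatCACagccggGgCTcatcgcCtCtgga
Scd2: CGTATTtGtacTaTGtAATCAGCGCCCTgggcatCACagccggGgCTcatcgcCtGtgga
Scd3: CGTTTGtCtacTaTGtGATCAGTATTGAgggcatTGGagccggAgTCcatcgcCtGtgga
Scd4: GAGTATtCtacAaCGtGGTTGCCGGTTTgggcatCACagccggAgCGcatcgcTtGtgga
Only 1 position varied among the 4 genes in the first stretch, and 30 varied in the second. Over the full transcripts, which include long untranslated parts, 4.66% of all windows of 50 bases in Scd1, 4.01% in Scd2 and 6.69% in Scd3 occurred exactly in the transcript of another gene. The rest of each transcript was distinct at that length. How the submitters treated reads that fit several genes, and how long the reads were, is not given in the sources used here.

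Scd1, the gene of the inhibited enzyme (chromosome 19, 44394455 to 44407879, minus strand), was the most abundant of the 10. It had 35792 and 46592 normalised reads in DMSO replicates 1 and 2 and 32588 and 23006 in inhibitor replicates 1 and 2. DMSO replicate 2 was the highest library and inhibitor replicate 2 the lowest, at 49.4% of it, and the groups were 3204 reads apart at their nearest. Replicates spanned 1.30-fold with DMSO and 1.42-fold with the inhibitor, while counting error was below 1% in every library (at most 0.675%), so the spread between libraries was far above it. The log2 fold change was -0.58 ± 0.16 (SE, n = 2 against 2, limma adjusted p = 0.0983), or 1.49-fold. Its 95% interval before adjustment ran from -0.92 to -0.23, and these limits depended on the setting. They were -1.29 to 0.13 in limma without its intensity trend and -1.17 to 0.022 with limma's robust prior, so both included 0. The other settings with all libraries that gave limits kept them below 0.

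The value for Scd1 depended on which libraries were compared. Inhibitor replicate 1 differed from DMSO replicate 1 by -0.14 on the log2 scale, and inhibitor replicate 2 from DMSO replicate 2 by -1.02. Without DMSO replicate 1, Scd1, Scd2 and Elovl1 passed limma's test (adjusted p = 0.00381, 0.00646 and 0.00781), each with a negative value, where 5.76% of all genes passed and 1.30% did so with a negative value. None of the 10 genes passed without DMSO replicate 2 (2.57% of all genes passed), without inhibitor replicate 1 (0.0362%) or without inhibitor replicate 2 (0.109%).

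Scd2, a delta-9 desaturase best known from brain and skin (chromosome 19, 44293674 to 44306864, plus strand), had 13404 and 16822 normalised reads with DMSO and 12336 and 10181 with the inhibitor. The 4 libraries stood in the same order as for Scd1, with DMSO replicate 2 highest and inhibitor replicate 2 lowest, at 60.5% of it. Its log2 fold change was -0.42 ± 0.13 (SE, limma adjusted p = 0.155, 95% interval -0.71 to -0.14). In limma without its intensity trend the interval was -0.99 to 0.15, which includes 0. The other settings with all libraries that gave limits kept them below 0.

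Scd3, a delta-9 desaturase of skin, was close to the lower limit of the test, with 76.0 and 40.6 normalised reads with DMSO and 75.5 and 43.0 with the inhibitor. The first replicates of both groups were high and the second low, so groups overlapped entirely, and counting error alone was 11.3% to 15.6% a library. A log2 fold change of 0.022 (95% interval -1.19 to 1.24) leaves 2.29-fold lower and 2.36-fold higher levels within its interval. Scd4, the heart-enriched paralog, lay below the floor of the test and had 0 and 28.7 normalised reads with DMSO and 21.02 and 9.44 with the inhibitor.

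Per kilobase of exon, Scd1 made up 74.7% and 75.5% of the summed level of the 4 SCD genes in the DMSO libraries and 74.5% and 71.5% in the inhibitor libraries. Scd2 made up 25.1% and 24.4% against 25.2% and 28.3%. The pair thus accounted for nearly all delta-9 desaturase transcript, and Scd3 stayed at or below 0.238%. The ratio of Scd1 to Scd2 per length was 2.98 and 3.09 with DMSO and 2.95 and 2.52 with the inhibitor. Groups did not overlap in this ratio, but inhibitor replicate 1 lay close to DMSO replicate 1, and inhibitor replicate 2 stood apart from the other 3. An exact permutation test of 2 against 2 samples cannot give a two-sided p below 0.333, so ratios and shares are given without a test.

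The FADS genes are 3 neighbours on chromosome 19, far from the SCD genes. They are less alike than the SCD genes, with 61.4% to 69.7% of aligned coding bases identical between pairs. At most 0.161% of the windows of 50 bases of any one of them occurred in a transcript of another gene, so reads of this length would be told apart nearly everywhere.

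Fads1, the delta-5 desaturase (10182888 to 10196877, plus strand), had 2779.8 and 2420.1 normalised reads with DMSO and 2382 and 1729 with the inhibitor. Inhibitor replicate 1 was 38.0 reads below DMSO replicate 2, less than the counting error of about 2% on either value, while inhibitor replicate 2 stood well below the other 3 libraries. The groups were therefore adjacent rather than apart. The log2 fold change was -0.35 ± 0.17 (SE; limma adjusted p = 0.379; 95% interval -0.71 to 0.013).

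Fads2, the delta-6 desaturase (10062765 to 10101746, minus strand), had 571 and 637 normalised reads with DMSO and 511 and 277 with the inhibitor. Inhibitor replicate 2 was again the lowest library, at 43.5% of the highest, the lowest such share of the 10 genes. The inhibitor replicates differed 1.85-fold, and the log2 fold change of -0.64 ± 0.31 (SE; limma adjusted p = 0.377) had a 95% interval from -1.31 to 0.022. It was the lowest of the 10 log2 fold changes and among those with the widest intervals. Without inhibitor replicate 2 it was -0.23 and without inhibitor replicate 1 it was -1.06.

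Fads3, which acts on the sphingoid base of ceramides rather than on free polyunsaturated acyl chains (10041569 to 10060110, plus strand), had 1329 and 1243 normalised reads with DMSO and 876 and 832 with the inhibitor. Here replicates lay close together, 1.07-fold apart with DMSO and 1.05-fold with the inhibitor, and the groups were 367 reads apart. The log2 fold change was -0.58 ± 0.18 (SE; limma adjusted p = 0.163; 95% interval -0.97 to -0.18). It was the steadiest of the negative values, between -0.62 and -0.53 under all 16 alternative settings tried. Without inhibitor replicate 2 it was -0.54, where Fads1 had -0.12 and Fads2 -0.23.

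Relative to each other, the FADS genes kept the same order per length in every library, but their proportions varied. The ratio of Fads1 to Fads2 ran from 2.60 to 4.27 and that of Fads2 to Fads3 from 0.383 to 0.671. Fads1 made up 49.1% to 56.2% of their summed level per length, Fads3 26.2% to 33.1% and Fads2 12.7% to 18.9%, with overlap between groups for Fads2 and Fads3. Fads1 held 52.4% and 49.1% with DMSO against 56.2% and 54.2% with the inhibitor, without overlap. Their summed level was 1063 ± 54.8 normalised reads per kilobase with DMSO and 772 ± 155 with the inhibitor (mean ± SD, n = 2 each).

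Among the elongases, Elovl1 (chromosome 4, 118428093 to 118432953, plus strand) was the most abundant. ELOVL1 lengthens saturated and monounsaturated acyl chains to the very long ones found in sphingolipids. Elovl1 had 4045 and 4819 normalised reads with DMSO and 3177 and 3137 with the inhibitor. The inhibitor libraries differed by less than counting error (1.01-fold, with counting errors of 1.73% and 1.83%), the DMSO libraries by 1.19-fold, and the groups were 868 reads apart. The log2 fold change was -0.48 ± 0.13 (SE; limma adjusted p = 0.0924, the smallest of the 10; 95% interval -0.76 to -0.20), or 1.40-fold. Exons of Elovl1 share 53 bases with Cdc20 on the opposite strand, 1.94% of its exon length.

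Elovl5 (chromosome 9, 77917364 to 77984519, plus strand), the elongase of the polyunsaturated pathway that alternates with FADS2 and FADS1, had 2559.5 and 2377 normalised reads with DMSO and 2153 and 2080.2 with the inhibitor. The groups did not overlap, yet the difference was small, at -0.22 ± 0.14 (SE; limma adjusted p = 0.530), or 1.16-fold. Its 95% interval before adjustment, -0.52 to 0.082, ran from 1.43-fold lower to 1.06-fold higher. These limits depended on the setting, and were -0.64 to 0.20 in limma without its intensity trend.

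Elovl6 (chromosome 3, 129532355 to 129638495, plus strand) encodes the elongase that turns palmitate into stearate, the preferred substrate of SCD1. It was low, with 242 and 148 normalised reads with DMSO and 155 and 188 with the inhibitor, so both inhibitor libraries lay between the DMSO libraries. Its log2 fold change of -0.13 had a 95% interval from -1.01 to 0.74 (limma adjusted p = 0.920), and the sign turned without DMSO replicate 1 (0.18).

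Elovl7 (chromosome 13, 108214404 to 108285683, plus strand), an elongase of saturated very long chains, was the 1 gene with higher values in both inhibitor libraries. It had 446 and 288 normalised reads with DMSO and 490.2 and 504 with the inhibitor. DMSO replicate 2 stood apart below the other 3 libraries, and the gap between groups was 43.8 reads. Counting alone gave 95% ranges of 406 to 489 for DMSO replicate 1 and 449 to 535 for inhibitor replicate 1, which overlapped. The log2 fold change was 0.44 ± 0.30 (SE; limma adjusted p = 0.561; 95% interval -0.20 to 1.08), 0.15 without DMSO replicate 2 and 0.73 without DMSO replicate 1 (adjusted p = 0.861 and 0.224).

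Of the 3 elongases of the family not among the 10, Elovl2 and Elovl3 had no read in any library, which allows up to 3 counts in each. Elovl4, which makes very long polyunsaturated chains, had 58 and 26 reads with DMSO (56.5 and 25.8 normalised) and none in either inhibitor library. With 3 counts per inhibitor library as the limit of a count of 0, the DMSO mean was 13.7 times that limit and DMSO replicate 2 alone 8.57 times. These ratios take the DMSO values as exact, although the DMSO libraries differed 2.19-fold, so they do not bound the difference. A similar gap occurred within a group, as in Scd4 (0 and 28.7 normalised reads with DMSO). Elovl4 lay below the floor of the test and had no p value. Per length, Elovl1 and Elovl5 together held most elongase transcript. Elovl1 made up 62.4% and 69.4% of the summed family with DMSO and 60.6% and 60.7% with the inhibitor, and Elovl7 4.68% and 2.82% against 6.35% and 6.62%. The ratio of Elovl1 to Elovl7 per length was 13.3 and 24.6 with DMSO and 9.54 and 9.17 with the inhibitor, and the ratio of Elovl1 to Elovl5 was 2.04 and 2.62 against 1.91 and 1.95. Both ratios were higher in DMSO replicate 2 than in the other 3 libraries.

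Promoters of Elovl1 and Fads3, the genes with a promoter entry and the smallest adjusted p among those with lower values, are printed with that of Elovl7, whose values lay on the other side. Each is the 250 bases before a RefSeq start (GRCm38.p6); of 2 starts listed for Elovl1, the upstream one is shown. Capitals mark matches, on either strand, to a CCAAT box (CCAAT, bound by NF-Y), a GC box (GGGCGG, bound by SP1), an E-box (CACGTG) or a sterol regulatory element (TCACNCCAC, bound by SREBP). In Elovl1, 1 GC box match and the CCAAT match overlap.
Elovl1, chr4:118427843-118428092, plus strand: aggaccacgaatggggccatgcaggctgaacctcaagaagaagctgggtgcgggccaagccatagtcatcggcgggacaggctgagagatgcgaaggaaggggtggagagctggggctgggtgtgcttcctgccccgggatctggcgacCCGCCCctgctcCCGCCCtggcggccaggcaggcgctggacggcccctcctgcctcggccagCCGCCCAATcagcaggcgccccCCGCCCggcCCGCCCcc
Fads3, chr19:10041298-10041547, plus strand: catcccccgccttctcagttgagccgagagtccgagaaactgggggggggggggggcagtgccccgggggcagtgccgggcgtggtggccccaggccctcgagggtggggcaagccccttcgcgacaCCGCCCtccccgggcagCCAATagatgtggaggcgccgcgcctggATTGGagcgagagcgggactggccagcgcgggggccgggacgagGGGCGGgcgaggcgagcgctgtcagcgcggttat
Elovl7, chr13:108214154-108214403, plus strand: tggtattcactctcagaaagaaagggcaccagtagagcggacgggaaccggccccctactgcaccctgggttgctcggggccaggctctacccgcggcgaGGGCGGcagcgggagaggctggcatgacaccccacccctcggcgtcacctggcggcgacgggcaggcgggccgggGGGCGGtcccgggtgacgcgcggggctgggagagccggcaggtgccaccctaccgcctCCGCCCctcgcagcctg
The Elovl1 window shown held 5 GC boxes and 1 CCAAT box, and the window of its other start (118429451 to 118429700) 2 GC boxes and no CCAAT box. Fads3 held 2 of each, and Elovl7 3 GC boxes and no CCAAT box. Among 32851 promoters of this length, 33.8% held a CCAAT box, 32.7% a GC box, 6.02% an E-box and 1.05% this sterol element, which none of these 3 held. Of the 10 genes, 7 had a promoter entry; Scd1, Scd2 and Fads1 had none. A match describes letters in the window and not a site in use.

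**Figure D2:**
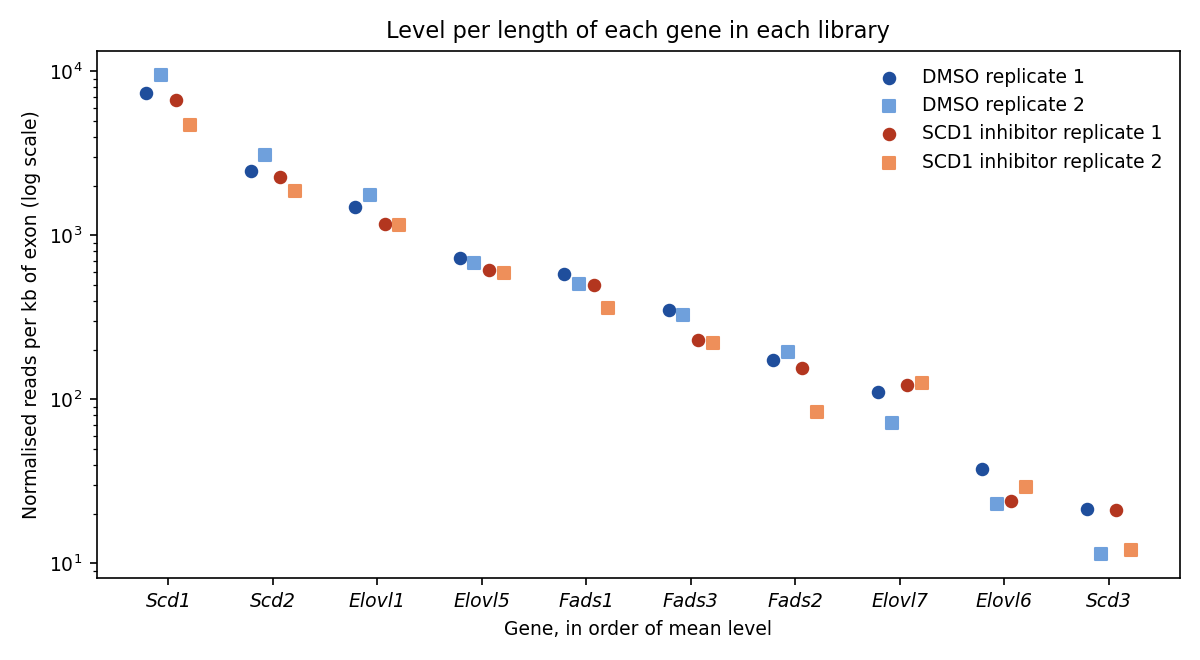
Normalised reads per kilobase of exon (log axis) for each gene in each of the 4 libraries, with genes ordered by their mean. Scd1 is highest, between 4703 and 9524, and Scd3 lowest, between 11.4 and 21.4.

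Compared per kilobase of exon, levels ran from Scd1 (mean of 4 libraries 7051) through Scd2 (2413), Elovl1 (1392), Elovl5 (651), Fads1 (484), Fads3 (282), Fads2 (151), Elovl7 (108) and Elovl6 (28.5) to Scd3 (16.6). The ranges of neighbours in this order did not overlap, except for Fads2 (84.0 to 193) and Elovl7 (71.9 to 125). Scd1 stood at rank 77 of 13643 tested genes with a length, and Scd2, Elovl1 and Elovl5 were above 97.2%, 93.8% and 83.8% of them. The order was the same with the longest transcript as the length and with libraries scaled to equal totals. Neighbours in the order differed by 1.35-fold (Elovl5 over Fads1) to 3.78-fold (Elovl7 over Elovl6), and the groups by at most 1.56-fold for any of the 10 (Fads2).

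The libraries also differed in alveolar type 2 markers (Sftpc, Sftpb, Sftpa1, Abca3, Lamp3, Slc34a2, Etv5, Lyz2, Napsa and Cxcl15). Summed, these came to 415911 and 474992 normalised reads with DMSO and to 329059 and 273772 with the inhibitor. Of the 10 markers, 4 fell in limma's test, where 59 of all 13810 genes tested did. The log2 fold change was negative for 9 of the 10, against 49.3% of all genes, with a median of -0.53. Sftpc, a surfactant protein gene and the most abundant, fell with -0.65 ± 0.14 (SE, limma adjusted p = 0.0345). The 4 libraries stood in the same order in this sum as in Scd1, Scd2, Fads2 and Elovl1. How many of all genes had this order was not counted. Set against the marker sum, Scd1 had 86.1 and 98.1 normalised reads per 1000 reads of these markers with DMSO and 99.0 and 84.0 with the inhibitor, so the groups overlapped. Fads2 (1.37 and 1.34 against 1.55 and 1.01), Fads3 (3.20 and 2.62 against 2.66 and 3.04) and Elovl1 (9.73 and 10.1 against 9.66 and 11.5) overlapped too.

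On that scale none of the 10 genes lay below in both inhibitor libraries (1.80% of all genes did), and Scd2, Elovl5 and Elovl7 lay above, as 69.4% of all genes did. Per 1000 reads of the 6 markers common to epithelial cells, in contrast, 6 of the 10 lay below (18.7% of all genes) and Elovl7 above (25.7%). Scd1 then had 350.4 and 448 against 332 and 224. In sorted cells pooled for RNA, fewer cells of a type and less RNA per cell cannot be told apart, and the part of the alveolar type 2 markers in these differences was not tested.

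**Figure D3:**
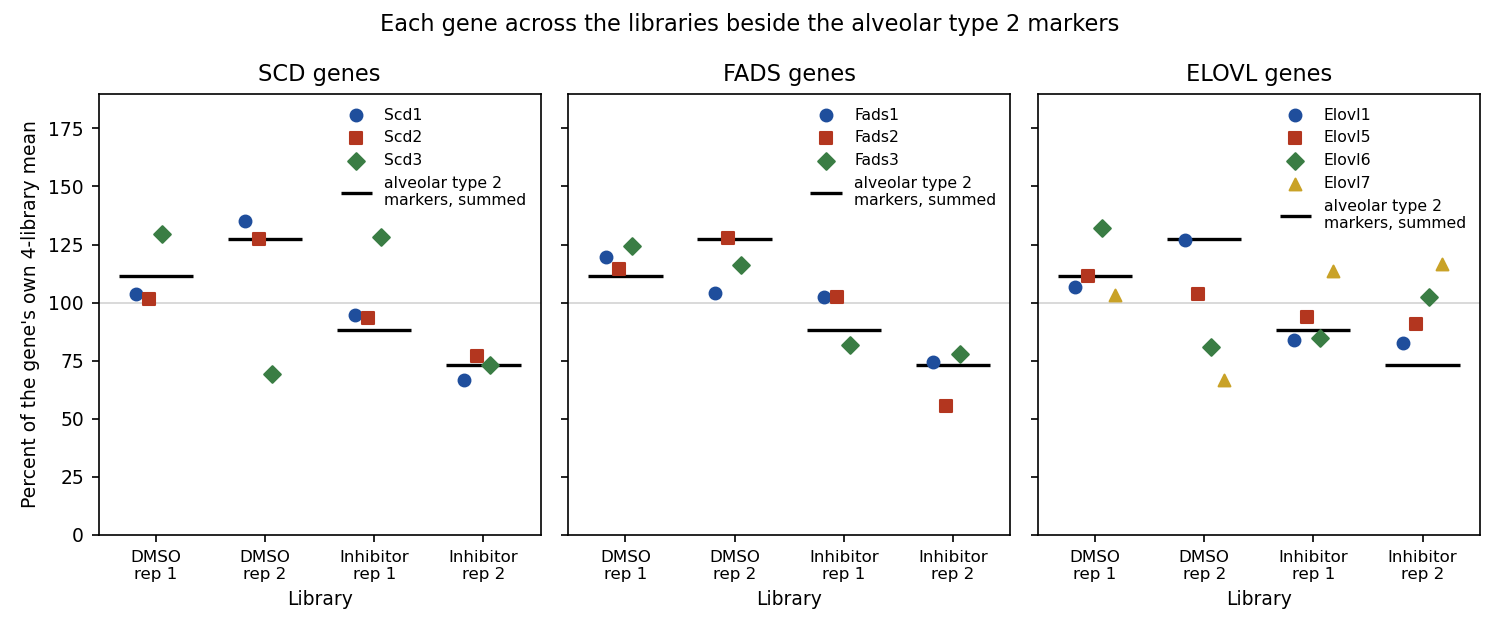
Each gene as a percentage of its own mean over the 4 libraries, by family, with black bars for the summed alveolar type 2 markers on the same scale. Scd1 and Scd2 sit near the bars in every library, at 135% and 128% against 127% in DMSO replicate 2 and at 66.7% and 77.2% against 73.3% in inhibitor replicate 2. Elovl1 sits near them as well (127% and 82.7% in the same libraries), and Elovl7 lies above the bars with the inhibitor.

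The 5 tested genes nearest to Scd1 in pattern, by the root mean square difference of centred log2 values over the 4 libraries, were Asl (0.042), Cdk5rap1 (0.050), Prrg2 (0.056), Lamtor1 (0.058) and Zbtb45 (0.065), of 9942 genes with a mean of at least 10 CPM. Among the other desaturases and elongases, Scd2 came nearest, at rank 51 (0.11), followed by Fads2 at rank 119 (0.14) and Elovl1 at rank 267 (0.18), and Elovl7 was far off, at rank 9202 (0.64).

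Genes that supply saturated acyl chains to these enzymes had negative log2 fold changes throughout: 7 of 7 tested, 4 of them with an unadjusted p under 0.05, with a median of -0.33. Over all genes tested, 49.3% were negative, and 5.92% were negative with an unadjusted p under 0.05 in limma's test. Fasn, the fatty acid synthase that makes palmitate, fell. It had 23526 and 24765 normalised reads with DMSO and 15248 and 13224 with the inhibitor, a log2 fold change of -0.76 ± 0.11 (SE; limma adjusted p = 0.00454), and was the 1 gene of this list that passed. The call ended without inhibitor replicate 1 (adjusted p = 0.0727), without inhibitor replicate 2 (0.239) and in limma without its intensity trend (0.453). Acaca, which makes the malonyl-CoA that both FASN and the elongases use, had 3653 and 3195 reads with DMSO and 2513 and 2075 with the inhibitor (-0.58 ± 0.15, SE; adjusted p = 0.0681); it passed with DESeq2 (0.0143), with limma's robust prior (0.0416) and without DMSO replicate 2 (0.0263), and also with the replicate block (0.00367).

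Partners of the elongation cycle lay on both sides of 0, with log2 fold changes from -0.17 to 0.25. After the ELOVL step, HSD17B12 reduces the chain, an HACD enzyme removes water and TECR reduces it again. In limma's test none of these 6 genes passed and 0 had an unadjusted p under 0.05; 3 were negative and the median was -0.014. Tecr had 2699 and 2903 normalised reads with DMSO and 2609 and 2375 with the inhibitor (-0.17, adjusted p = 0.638). Hacd1 had 268 and 284 against 374 and 299 (0.25, adjusted p = 0.786). Both inhibitor libraries lay below both DMSO libraries in Tecr and above them in Hacd1. The interval before adjustment ran from -0.46 to 0.13 for Tecr and from -0.44 to 0.95 for Hacd1. A change within these limits is neither shown nor excluded. Electron donors of the desaturases, the cytochrome b5 genes and their reductases, had none of 5 tested past the threshold, 0 at an unadjusted p under 0.05, and 4 negative, with a median of -0.13. Over all genes tested, 14.1% had such a p and 49.3% were negative. Cyb5r3 had 7257.5 and 8374 against 6581 and 6651 reads (-0.24, adjusted p = 0.389) and Cyb5r1 516 and 473 against 329.7 and 317 (-0.57, adjusted p = 0.394).

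Transcriptional regulators of the pathway included none of 16 that passed limma's test and 5 with an unadjusted p under 0.05, with 12 negative and a median of -0.18. The shares over all genes tested were 14.1% with such a p and 49.3% negative. Srebf1, whose product drives lipogenic genes including Scd1, had 8191 and 9099 normalised reads with DMSO and 7384 and 7127 with the inhibitor (-0.25 ± 0.11, SE; limma adjusted p = 0.331). Srebf2, whose product drives genes of cholesterol synthesis, had 11593 and 12219 against 9729 and 9465 (-0.31, adjusted p = 0.188), and Rxra, the partner of LXR and PPAR receptors, 7265 and 7427 against 5471 and 6374 (-0.31, adjusted p = 0.241). All 3 had both inhibitor libraries below both DMSO libraries, as 22.2% of all genes tested did. Srebf2 and Rxra were named because their p was the smallest of this list, which favours such a gap.

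Acyl-CoA synthetases and binding proteins, which activate and carry fatty acids, had none of 8 tested past the threshold, 1 at an unadjusted p under 0.05, 4 negative and a median of -0.031. Acsl3 had 7039 and 6919 normalised reads with DMSO and 9123 and 7961 with the inhibitor (0.29, adjusted p = 0.274), and Slc27a4 640.4 and 1018 against 531 and 559 (-0.55, adjusted p = 0.366). Among enzymes that use the products, none of 11 tested passed, 2 had an unadjusted p under 0.05, 8 were negative and the median was -0.099. For both lists, the shares over all genes tested were 14.1% with such a p and 49.3% negative. Lpcat1, which makes the saturated phosphatidylcholine of surfactant, had 6499 and 7449 against 5192 and 4513 reads (-0.52 ± 0.12, SE; adjusted p = 0.0547), and Agpat3 4231 and 4227 against 3253 and 3591 (-0.31, adjusted p = 0.288). Of the related desaturases outside the 10 genes, Degs1, which makes ceramide from dihydroceramide, had 834 and 1227 against 1042 and 841 reads (-0.11, adjusted p = 0.880) and overlapped between groups; the paralog Degs2 had 60.4 and 155 against 99.4 and 229 (0.52, adjusted p = 0.721).

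**Figure D4:**
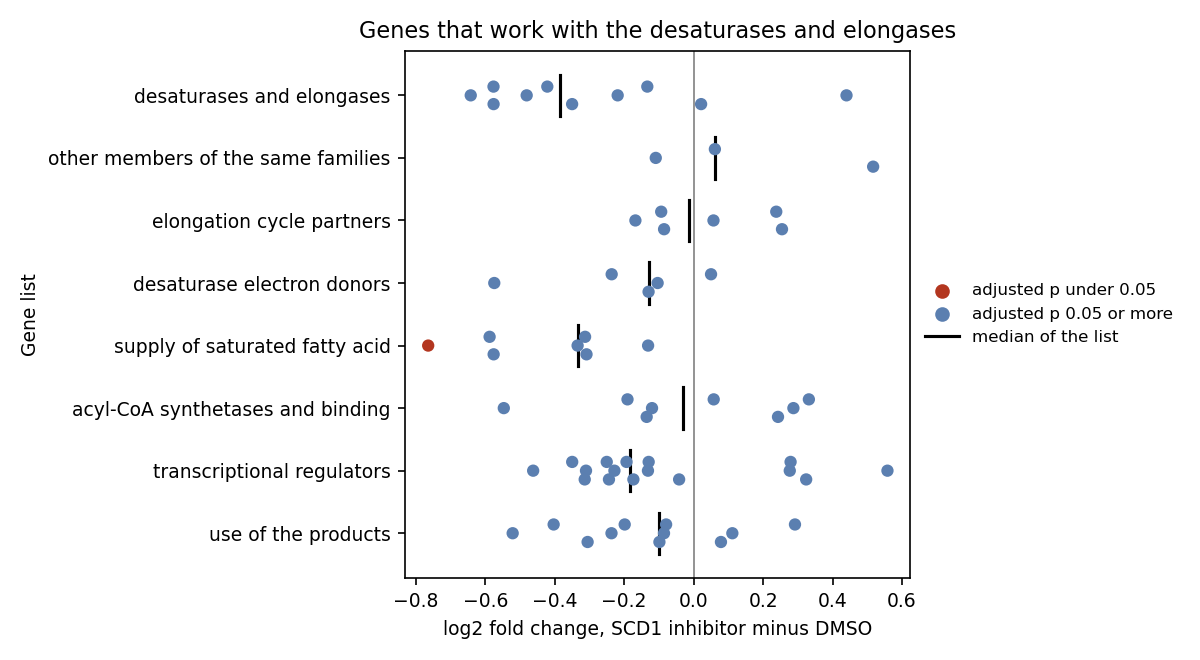
Log2 fold changes (SCD1 inhibitor minus DMSO) of the 10 desaturases and elongases and of each list of genes that work with them, with a black bar at each median. Fasn, at -0.76, is the 1 point with an adjusted p under 0.05, and the elongation cycle partners centre at -0.014.

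In markers of other cell types, libraries differed as well. Of all 13810 genes in limma's test, 59 fell, 188 rose and 49.3% had a negative log2 fold change. Goblet cell markers (9 of 9 negative, 6 fell, median -1.61) summed to 106532 and 80974 normalised reads with DMSO and to 19181 and 37199.5 with the inhibitor, with inhibitor replicate 1 the lowest, unlike Scd1. Club cell markers (7 of 7 negative, 2 fell, median -0.30) summed to 722969 and 636488 against 670646 and 449724. Ciliated cell markers (median 0.20, 1 rose) summed to 499103 and 510954 against 503127 and 522624. Basal cell markers (5 of 5 tested negative, 0 passed) summed to 5232 and 3898 against 913 and 3072, and fibroblast markers (5 of 6 tested positive, 0 passed, Tcf21 at 0) to 2084 and 3482 against 3569 and 3567. The most abundant fibroblast marker was Plin2, which many cells express. Alveolar type 1 markers (5 of 6 tested negative, 1 fell) summed to 19276 and 20796 against 17232 and 17558, and macrophage markers to 3397 and 5093 against 3210 and 2475. Most of the macrophage sum came from Lyz1 alone (2893 and 4218 against 2313 and 1986). Of 6 macrophage markers tested, 4 were negative, 2 positive and 0 passed. The part of these cell types in the values of the desaturases and elongases was not tested.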

How the data were processed

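RNA from sorted mouse lung airway epithelial cells (2 DMSO and 2 SCD1 inhibitor libraries, all with HDM; 5 ng of total RNA each, per the labels) was analysed from 1 deposited signal table. HOMER, DESeq2 and the build mm10 stand in the submitters' processing notes, without versions or steps; aligner and strand setting: not given in the sources used here. The deposited signal values were each gene's read count over a library's size factor, as the values show: 100% of them were whole multiples of 1 step per library (within 0.01), and the inverse steps equalled median-of-ratios size factors. In DMSO replicate 2 the step is near 1 (0.991), so recovery of its reads rests on the multiples and the size factor.

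Genes with a mean of at least 25.8 (1 CPM) were kept, 13810 of 25124, and fitted with limma 3.58.1 (R 4.3.3; intensity trend, prior degrees of freedom 11.2, Benjamini-Hochberg adjustment over all of them, threshold 0.05) on log2(value + 25.8). edgeR 4.0.16, DESeq2 1.42.0 and limma voom were run on recovered reads of the same genes. Exon lengths came from GENCODE M21 (24497 symbols matched). Counting errors cover counting only, since PCR copies are not independent. Named genes were the 10, Fasn, Acaca, Srebf1 and Scd4, those that passed and the 2 of smallest p per pathway list, the 5 nearest Scd1 and the most abundant marker per list; the other family members without a test (Elovl2, Elovl3, Elovl4) were named after their values were seen. Genes and lists were chosen with earlier results of these data known; the ratio to marker sums was added after seeing values. Figures used Python 3.11.15 and matplotlib 3.10.9.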

Additional observations from a re-analysis of the deposited data

How the results depend on the processing

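Under 16 alternatives, the 10 genes gave 145 values on the same side of 0 and of the threshold, 8 that newly passed and 3 of opposite sign. The 3 of opposite sign all came with 1 library left out. A fit with 1 library left out has 1 library in a group and does not measure that group's spread. Elovl6 was 0.18 without DMSO replicate 1. Scd3 was -0.29 without DMSO replicate 2, and -0.26 when inhibitor replicate 1 was left out. With 1 library left out, Elovl6 ranged from -0.45 to 0.18 and Scd3 from -0.29 to 0.33; the cause was not tested. Elovl6 and Scd3 have no adjusted p in DESeq2 and fall below a floor of 10 CPM. Of the 10 genes, 2 were called lower with DESeq2, 3 with a replicate block and 0 to 3 with 1 library left out. The median of the 10 ran from -0.52 to -0.24 with 1 library left out. Over all genes, limma called 188 higher and 59 lower; the counts were 33 and 9 with edgeR, 378 and 170 with DESeq2, 51 and 13 without a filter, 0 and 0 in limma without the intensity trend (1423 genes at an unadjusted p under 0.05), 39 lower with equal upper quartiles, and 0 to 616 higher and 5 to 179 lower with 1 library left out. The 0 higher calls were without inhibitor replicate 1, where 574 genes were higher at an unadjusted p under 0.05. Over all alternatives the adjusted p ran from 0.000384 to 0.854 for Scd1, from 0.00646 to 0.880 for Scd2 and from 0.00781 to 0.770 for Elovl1.

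With the replicate number as a block, 469 genes were higher and 205 (1.48%) lower, and Scd1, Scd2 and Elovl1 passed (adjusted p = 0.000384, 0.0136 and 0.0132). Nothing in the labels ties samples of one number together, and the pairing is weak in the data: across 13810 genes, the differences between replicates 1 and 2 correlated between groups at r = 0.0734. That fit gave its prior 107 degrees of freedom, against 11.2 without a block. Scd3, Scd4, Elovl4 and Elovl6 had at most 248 reads in a library; the DMSO libraries still differed by 3.25 counting errors in Scd3 and 4.75 in Elovl6.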
